A study of Mus musculus with 11 samples.

Results

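The immunity-related GTPases (IRG) and the guanylate-binding proteins (GBP) are 2 families of GTPases that cells make in response to interferons. The 10 genes described here were chosen by symbol, with earlier results of these data known. They are Igtp, Irgm1, Irgm2, Tgtp1 and Tgtp2 from the IRG family, and Gbp2, Gbp3, Gbp6, Gbp7 and Gbp8 from the GBP family. All 10 were found among the 31168 genes of the count table, and all 10 passed the filter on low counts that left 15911 genes for testing. RNA from the distal ileum of individual mice was sequenced in 5 dIEC and 6 WT libraries. The dIEC mice were H2-Ab1 fl/fl; Villin:Cre+, and the WT mice were H2-Ab1 fl/fl; Villin:Cre-. The Villin promoter drives Cre in the intestinal epithelium, so the deletion is meant to remove this class II chain from epithelial cells, and other class II-bearing cells of the ileum keep it. Mice of both groups received Dextran Sodium Sulfate, an agent that injures the gut epithelium, and no untreated group is part of the series. Not given in the sources used here are the ages of the mice and the length of treatment.

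GTPases of the IRG family are made after interferon-gamma binds its receptor and Jak kinases pass the signal on, and the transcription factor Irf1 takes part in switching on their genes. The effector IRG proteins coat the vacuole around an intracellular parasite or bacterium, and the 3 IRGM regulators (Irgm1, Irgm2 and Igtp, also called Irgm3) sit on the cell's own membranes and keep the effectors inactive there. GBP proteins gather on the same vacuoles and on the surface of cytosolic bacteria, break them open, and help caspase-11 sense the lipopolysaccharide that is exposed. In the gut these proteins are known from epithelial cells and macrophages as part of cell-autonomous defence.

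The genes lie on 3 chromosomes of the mouse genome (GRCm38, called mm10, with GENCODE gene models). All 5 IRG genes are on chromosome 11, in 2 separate groups: Irgm1 (chr11:48861968-48871683, minus strand), Tgtp1 (chr11:48985327-48994172, minus) and Tgtp2 (chr11:49057194-49064206, minus), and farther along Igtp (chr11:58199556-58207591, plus) and Irgm2 (chr11:58199618-58222782, plus). Gbp7 (chr3:142530342-142550149), Gbp3 (chr3:142560026-142573209) and Gbp2 (chr3:142620602-142638008) follow each other on the plus strand of chromosome 3. Gbp8 (chr5:105014150-105139540) and Gbp6 (chr5:105270702-105293698) are on the minus strand of chromosome 5. All 10 are annotated as protein-coding.

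Promoter sequences are shown because these genes are textbook interferon targets and their start sites carry the response elements in close view. RefSeq promoter windows (GRCm38.p6, 250 bases before to 50 after the start site) were matched by symbol for 8 of the 10 genes, with 2 windows for Gbp3. Gbp6 and Gbp8 had no entry. The windows were searched on both strands for the letters of a gamma-activated site (GAS), TTCNNNGAA, and for the core of an interferon-stimulated response element (ISRE, read by Irf factors), GAAA followed after 2 bases by GAAA. The stretches below run from 120 bases before to 20 after the start site, 5′ to 3′ in the direction of the gene, with every GAS or ISRE match in capitals; TTTC repeats are the ISRE core on the opposite strand.
Igtp (chr11:58199436-58199575, plus strand): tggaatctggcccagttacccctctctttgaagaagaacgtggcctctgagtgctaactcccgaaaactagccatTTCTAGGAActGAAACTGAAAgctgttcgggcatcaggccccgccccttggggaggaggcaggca
Irgm2 (chr11:58214857-58214996, plus strand): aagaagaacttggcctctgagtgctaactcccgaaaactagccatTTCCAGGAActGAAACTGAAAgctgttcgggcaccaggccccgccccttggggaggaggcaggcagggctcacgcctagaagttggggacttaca
Tgtp1 (chr11:48992227-48992366, minus strand): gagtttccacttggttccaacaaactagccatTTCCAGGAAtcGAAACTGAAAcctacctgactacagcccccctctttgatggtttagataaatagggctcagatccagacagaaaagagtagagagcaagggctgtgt
Tgtp2 (chr11:49064193-49064332, minus strand): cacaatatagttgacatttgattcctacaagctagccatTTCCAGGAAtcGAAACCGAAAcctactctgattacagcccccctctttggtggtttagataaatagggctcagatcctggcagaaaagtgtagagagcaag
Irgm1 (chr11:48871401-48871540, minus strand): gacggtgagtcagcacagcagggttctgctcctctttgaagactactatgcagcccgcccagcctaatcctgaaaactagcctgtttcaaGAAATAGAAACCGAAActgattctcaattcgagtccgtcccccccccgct
Gbp2 (chr3:142620543-142620682, plus strand): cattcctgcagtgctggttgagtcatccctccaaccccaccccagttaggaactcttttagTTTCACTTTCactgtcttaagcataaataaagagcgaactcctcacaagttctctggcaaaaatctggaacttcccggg
Gbp3 (chr3:142559924-142560063, plus strand): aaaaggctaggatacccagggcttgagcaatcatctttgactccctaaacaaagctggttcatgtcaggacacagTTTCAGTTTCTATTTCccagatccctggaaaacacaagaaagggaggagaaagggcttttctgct
Gbp7 (chr3:142530216-142530355, plus strand): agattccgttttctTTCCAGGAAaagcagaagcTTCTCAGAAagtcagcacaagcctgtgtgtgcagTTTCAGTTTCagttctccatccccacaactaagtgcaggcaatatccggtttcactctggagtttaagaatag

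An ISRE core was found for all 8 genes, in 8 of their 9 windows (88.9%), against 3.44% of all 32851 RefSeq promoter windows of the same length. A GAS match was found in 5 of the 9 windows (55.6%), those of Igtp, Irgm2, Tgtp1, Tgtp2 and Gbp7, against 8.30% of all windows. Igtp, Irgm2, Tgtp1 and Tgtp2 share one arrangement: a GAS, 2 further bases, then an ISRE core in the same direction. That block of letters begins 45 bases before the start site in Igtp, 75 in Irgm2, 88 in Tgtp1 and 81 in Tgtp2. The arrangement was looked for in all windows after it had been seen in these, and occurred in 5 of the 32851 (0.0152%), the fifth being that of Gm12185, another gene of the IRG family. Irgm1 carries a pair of overlapping ISRE cores beginning 30 and 24 bases before its start and no GAS match in its window, and the windows of Gbp2 and Gbp3 likewise hold ISRE cores only. Gbp7 has GAS matches 106 and 87 bases before its start and an ISRE core 53 bases before it. These are matches of letters in a short window and say nothing of binding in these samples.

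**Figure D1:**
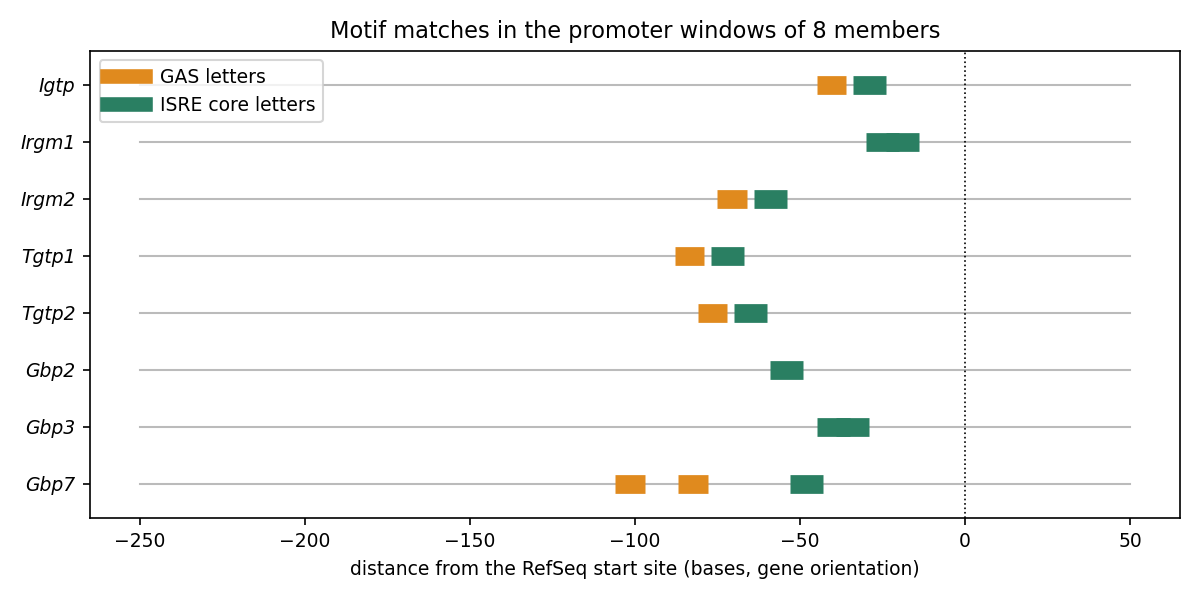
Matches to the GAS and ISRE core letters in the RefSeq promoter windows of 8 members, drawn by distance in bases from the start site in gene orientation; one row per gene. In Igtp, Irgm2, Tgtp1 and Tgtp2 a GAS lies just upstream of an ISRE core, and all matches fall between 106 bases before the start and the start itself.

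The targeted gene was checked first. H2-Ab1, the I-A beta chain, averaged 26.0 ± 9.87 counts per 1000000 (CPM) in dIEC and 83.1 ± 27.4 CPM in WT (SD, n = 5 and 6), and every dIEC library was below every WT library (exact two-sided permutation p = 0.00433, the smallest that 5 against 6 libraries allow). The log2 fold change was -1.68 ± 0.28 (SE), with an adjusted p of 0.361 in edgeR's quasi-likelihood test and 1.4e-05 in DESeq2. Total counts per library ran from 6604479 to 9682941, of which ribosomal RNA rows took 37.0% to 57.0%, so each member rests on 15 to 282 counts in a library. With the Benjamini-Hochberg adjustment, 1 of 15911 genes (0.00628%) passed 0.05 in edgeR's test. Leaving out WT replicate 8, which stood highest of all libraries in the summed absorptive enterocyte markers, gave 213 genes higher in dIEC (1.35% of 15794 tested) and 106 lower; none of the 10 GTPase genes was among either.

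Within the IRG and GBP genes, 9 of 10 had a higher fitted level in dIEC than in WT, and none passed the adjusted threshold. The median log2 fold change of the 10 was 0.55, against -0.0071 over all 15911 genes, of which 48.8% were above 0. Before adjustment, 6 of the 10 had a p below 0.05 and were higher in dIEC (Igtp, Irgm1, Irgm2, Tgtp1, Tgtp2 and Gbp8), where 4.87% of all genes did. The genes were chosen with earlier results of these data known, and Tgtp1 and Tgtp2 share most of their sequence. The 6 are therefore described beside that share and not tested against it. In none of the 10 were the 5 dIEC libraries all above the 6 WT libraries, a separation seen in 0.233% of all genes. DESeq2, which called 0.110% of the 10013 genes it adjusted, called none of the 8 members it adjusted and gave no adjusted p for Gbp3 and Gbp6. The higher means came from replicates 1, 3 and 11 of dIEC, while replicates 5 and 6 lay mostly inside the WT range. The genes of the 2 families are described in turn, each with its CPM in dIEC replicates 1, 3, 5, 6 and 11.

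**Figure D2:**
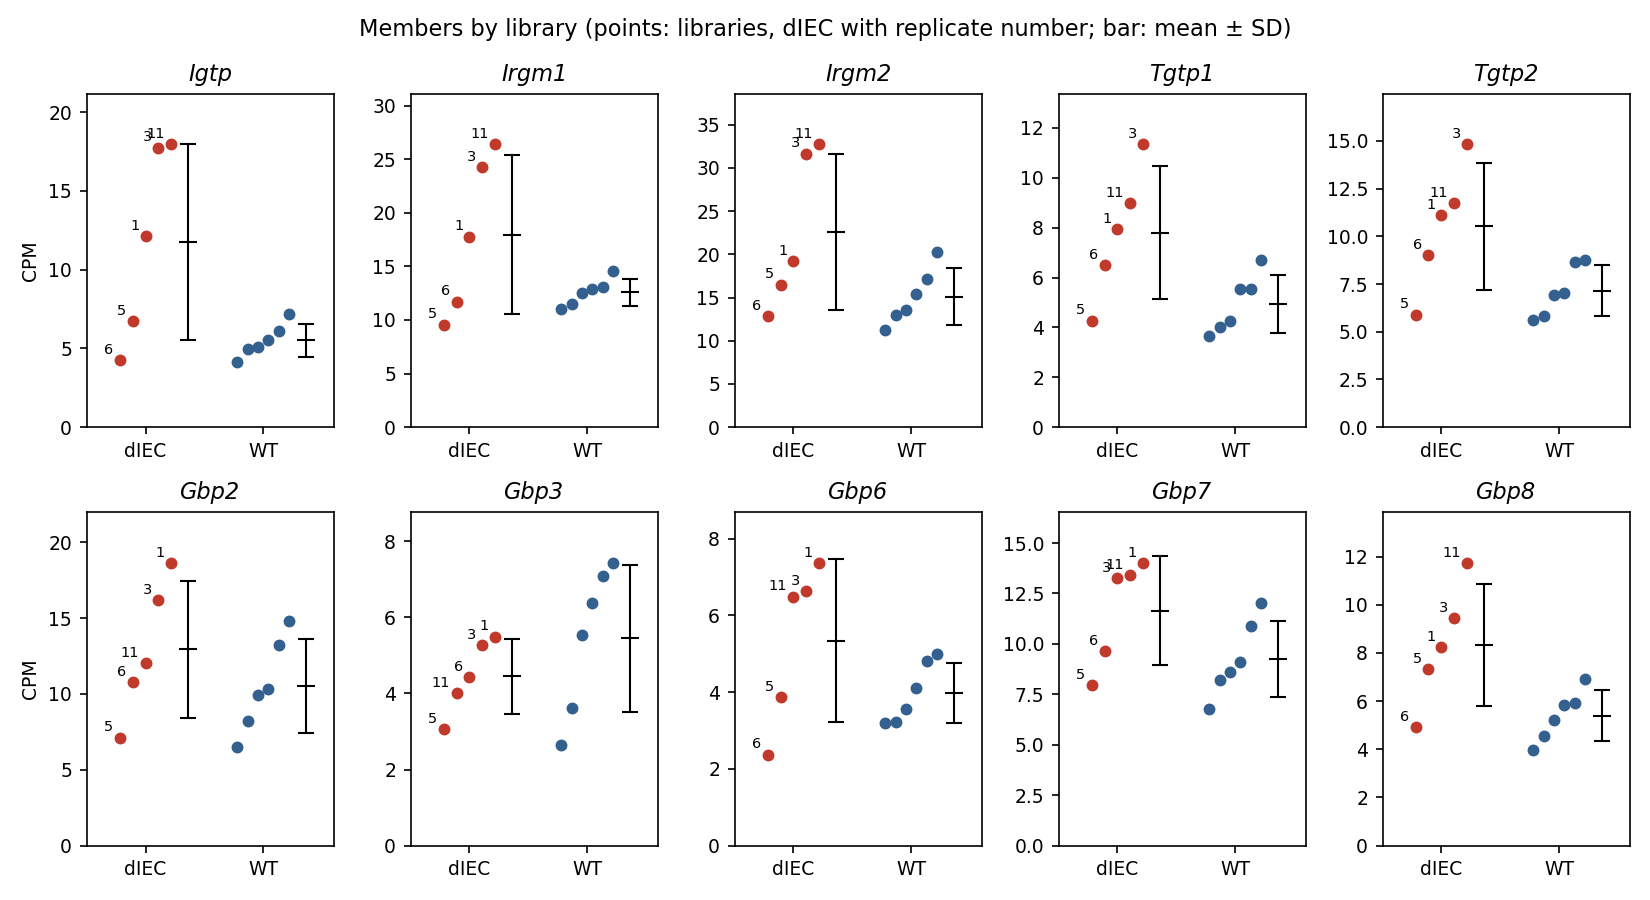
CPM (vertical axis, from 0, a separate scale per gene) of the 10 members in each dIEC library (red, with its replicate number) and each WT library (blue), with mean ± SD beside the points (n = 5 and 6). In most panels dIEC replicates 1, 3 and 11 stand above the WT points, but not replicate 1 for Irgm2 or replicate 11 for Gbp2. Replicates 5 and 6 mostly stand among the WT points. Replicate 5 is below them for Irgm1 and above them for Gbp8, and replicate 6 is above them for Tgtp2 and below them for Gbp6. For Gbp3 every dIEC point lies within the WT range.

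Igtp, the IRGM regulator also known as Irgm3, had the largest log2 fold change. It measured 12.1, 17.7, 6.72, 4.27 and 17.95 CPM in dIEC, against 4.11 to 7.21 CPM in WT with a median of 5.32. Replicates 1, 3 and 11 of dIEC were above every WT library and replicates 5 and 6 were within the WT range. The means were 11.8 ± 6.24 CPM in dIEC and 5.51 ± 1.06 CPM in WT, a log2 fold change of 1.11 ± 0.31 (SE, approximate 95% interval 0.50 to 1.72). Its unadjusted p was 0.00318 and its adjusted p 0.427 in edgeR's test, and the exact two-sided permutation p over libraries was 0.0649.

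Irgm2, its neighbour and another IRGM regulator, known to limit caspase-11 activation, measured 19.2, 31.7, 16.5, 12.8 and 32.7 CPM in dIEC, against 11.2 to 20.3 CPM in WT with a median of 14.5. Replicates 3 and 11 alone exceeded every WT library. The log2 fold change was 0.58 ± 0.23 (edgeR adjusted p = 0.434; exact permutation p = 0.126). The annotated exons of Igtp and Irgm2 share 162 bases on the same strand, 8.01% of Igtp and 4.39% of Irgm2, so a small portion of their counts cannot be assigned to one of them. The count of Igtp was 0.333 to 0.632 times that of Irgm2 in dIEC and 0.304 to 0.443 times in WT.

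Irgm1, the regulator tied to autophagy and to survival of mycobacterial infection in mice, measured 17.8, 24.3, 9.57, 11.7 and 26.4 CPM in dIEC, against 11.02 to 14.6 CPM in WT with a median of 12.7. Replicates 1, 3 and 11 were above the WT range, and replicate 5 was below every WT library. The log2 fold change was 0.53 ± 0.22 (edgeR adjusted p = 0.441; exact permutation p = 0.139). Its WT libraries varied by 10.1% (coefficient of variation), about what counting alone gives (9.76%), while the dIEC libraries varied by 41.3%, with 9.85% from counting.

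Tgtp1 and Tgtp2 encode nearly identical copies of Irgb6, an effector that coats parasite vacuoles. Tgtp1 measured 7.95, 11.3, 4.28, 6.49 and 8.98 CPM in dIEC, against 3.66 to 6.69 CPM in WT with a median of 4.89. Tgtp2 measured 11.1, 14.8, 5.91, 9.02 and 11.7 CPM in dIEC, against 5.64 to 8.78 CPM in WT with a median of 6.99. For Tgtp2 every dIEC library but replicate 5 lay above the WT range, and for Tgtp1 replicates 1, 3 and 11 did. The log2 fold changes were 0.68 ± 0.22 for Tgtp1 and 0.58 ± 0.20 for Tgtp2 (edgeR adjusted p = 0.427 for each; exact permutation p = 0.0433 for Tgtp1 and 0.0476 for Tgtp2). These are not 2 separate measurements: of the 50-base words in Tgtp1 transcripts, 79.4% also occur in Tgtp2, and 85.8% of those of Tgtp2 occur in Tgtp1. The handling of reads that match both genes is unknown. The count ratio of Tgtp1 to Tgtp2 stayed between 0.714 and 0.765 in dIEC and between 0.604 and 0.796 in WT, and the summed counts of the pair gave a log2 fold change of 0.61 ± 0.20 (edgeR adjusted p = 0.427).

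Gbp8, on chromosome 5, was the GBP with the largest log2 fold change. It measured 8.24, 9.43, 7.33, 4.91 and 11.7 CPM in dIEC, against 3.98 to 6.90 CPM in WT with a median of 5.52. All dIEC libraries but replicate 6 exceeded the WT range. The log2 fold change was 0.63 ± 0.20 (95% interval 0.23 to 1.02; edgeR adjusted p = 0.427; exact permutation p = 0.0303, the lowest of the 10, with no adjustment over the 10). Of its 50-base words 18.1% occur in other genes, mostly its GBP neighbours.

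Gbp6, a member of the same cluster, was the lowest of the 10 per kilobase of exon. It measured 7.37, 6.62, 3.87, 2.37 and 6.49 CPM in dIEC, against 3.19 to 4.99 CPM in WT with a median of 3.84. Replicates 1, 3 and 11 were above the WT range and replicate 6 below it. The log2 fold change was 0.44 ± 0.25 (edgeR adjusted p = 0.516; exact permutation p = 0.173). Its transcripts share 70.7% of their 50-base words with other genes, 65.0% with Gm43302 and 46.0% with Gbp10, so its level is uncertain.

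On chromosome 3, Gbp2, which gathers on Toxoplasma vacuoles and bacterial surfaces, measured 18.6, 16.2, 7.13, 10.8 and 12.01 CPM in dIEC, against 6.50 to 14.8 CPM in WT with a median of 10.2. Only replicates 1 and 3 passed the WT maximum, and the log2 fold change was 0.31 ± 0.24 (95% interval -0.16 to 0.78; edgeR adjusted p = 0.628; exact permutation p = 0.312). Gbp7, known in mouse macrophages for a role in oxidative killing of bacteria, measured 14.0, 13.2, 7.94, 9.65 and 13.4 CPM in dIEC, against 6.77 to 12.02 CPM in WT with a median of 8.86. Replicates 1, 3 and 11 were above the WT range; the log2 fold change was 0.34 ± 0.17 (edgeR adjusted p = 0.489; exact permutation p = 0.121). A processed pseudogene, Gm43802, lies within Gbp7 and shares 11.4% of its exonic bases.

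Gbp3 was the exception. It measured 5.49, 5.28, 3.05, 4.43 and 4.004 CPM in dIEC, against 2.65 to 7.43 CPM in WT with a median of 5.96. No dIEC library was outside the WT range, and replicate 7 of WT was the highest library. The log2 fold change was -0.28 ± 0.25 (95% interval -0.77 to 0.21; edgeR adjusted p = 0.680; exact permutation p = 0.320).

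**Figure D3:**
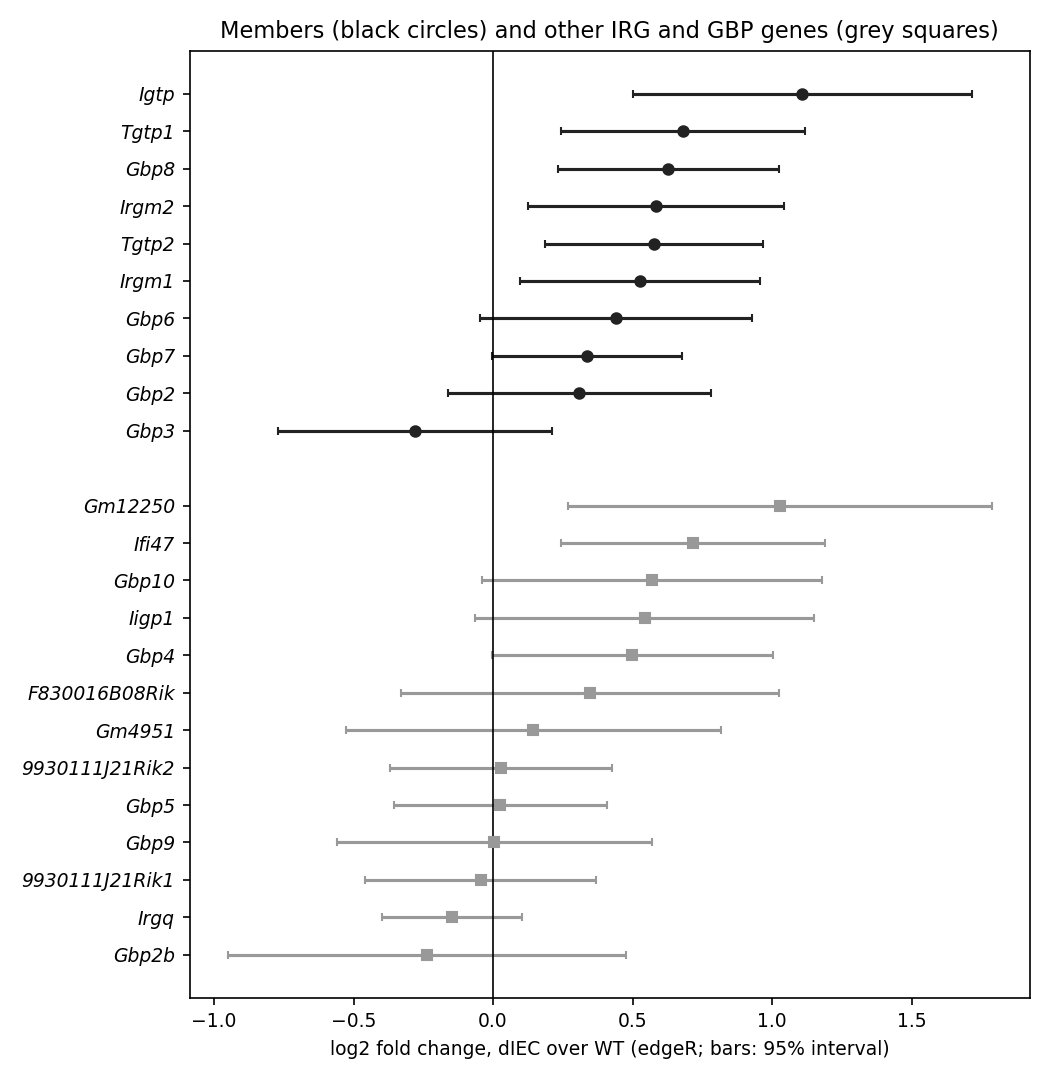
Log2 fold change of dIEC over WT from edgeR's fit, with an approximate 95% interval derived from it. Shown are the 10 members (black circles) and the 13 tested genes among the other IRG and GBP genes (grey squares), each set sorted from high to low. Igtp stands highest at 1.11, Gbp3 is the one member below 0, and the intervals of 6 members lie above 0 before any adjustment.

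By family, the 5 IRG genes had log2 fold changes of 0.53 to 1.11 with a median of 0.58. All 5 had an unadjusted p below 0.05 in edgeR's test. The 5 GBP genes ran from -0.28 to 0.63 with a median of 0.34, and 1 of them, Gbp8, had such a p. Over all genes 4.87% were higher in dIEC by that measure. The exact permutation p was below 0.05 only for Gbp8 and for Tgtp1 and Tgtp2, which share most of their sequence. A difference between the families was not tested. The summed CPM of the 5 IRG genes was 68.2, 99.8, 43.0, 44.3 and 97.8 in dIEC, against 38.8 to 55.8 in WT with a median of 44.4. That of the 5 GBP genes was 53.8, 50.8, 29.3, 32.1 and 47.6 in dIEC, against 23.1 to 44.9 in WT with a median of 34.2. Replicates 1, 3 and 11 of dIEC exceeded the WT range in both sums and replicates 5 and 6 in neither. The ratio of IRG to GBP counts overlapped between the groups, at 1.27 to 2.05 in dIEC and 1.16 to 1.89 in WT. Among the 11 libraries, dIEC replicate 3 was one of the 3 highest for 9 of the 10 genes, and replicates 1 and 11 for 8 each, while dIEC replicates 5 and 6 were so for none. Replicate 5 had the lowest effective depth, with 355 counts over the 10 genes, against 483 to 1341 in the other dIEC libraries and 502 to 964 in WT.

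**Figure D4:**
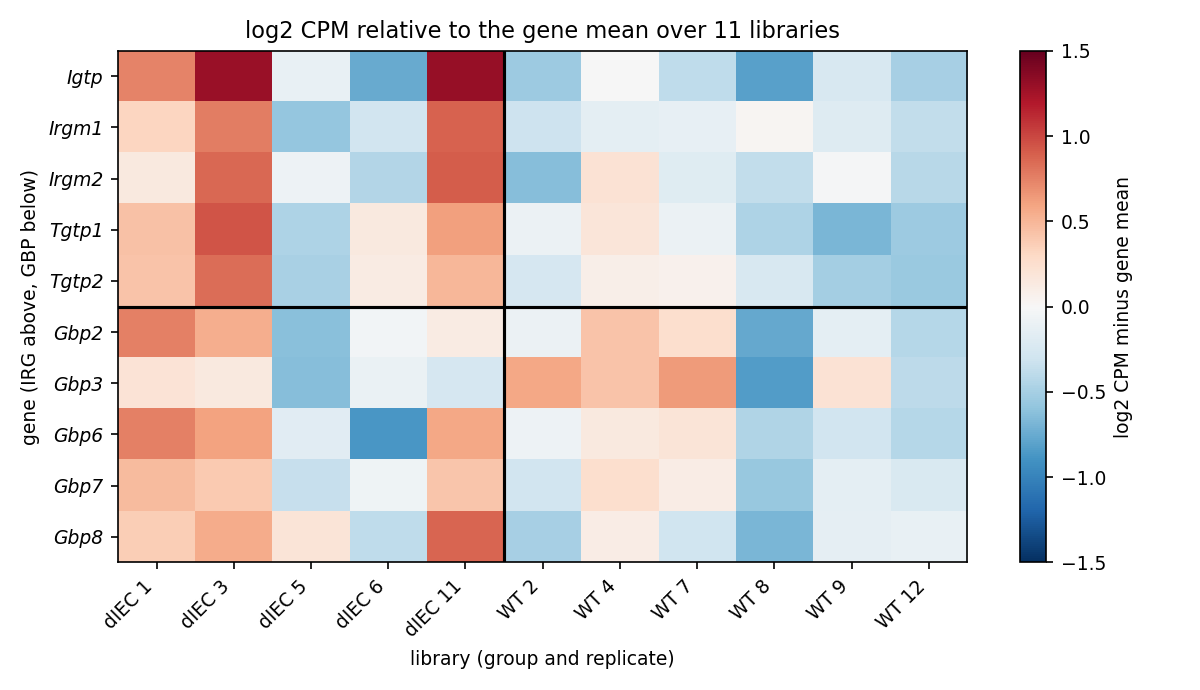
Log2 CPM of the 10 members (rows, IRG above the line and GBP below it) in the 11 libraries (columns, dIEC left of the line and WT right), each relative to the gene's mean over all libraries. Columns dIEC 1, 3 and 11 are high in nearly every row, dIEC 5 and 6 resemble WT, and the row of Gbp3 runs differently from the rest.

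Per kilobase of annotated exon, the order of levels in dIEC was Irgm2 (6.12 CPM per kilobase), Igtp (5.82), Gbp2 (5.14), Tgtp2 (3.58), Irgm1 (3.09), Tgtp1 (2.44), Gbp8 (2.42), Gbp7 (2.08), Gbp3 (1.36) and Gbp6 (0.898). Among neighbours in this order, only Gbp7 over Gbp3 and Gbp3 over Gbp6 differed by more than the larger of their SDs. In WT the order began with Gbp2 (4.18 CPM per kilobase), Irgm2 (4.09) and Igtp (2.72) and ended with Gbp6 (0.669), and only Irgm2 over Igtp and Tgtp1 over Gbp6 were neighbours apart by more than the larger SD. The places of Tgtp1, Tgtp2 and Gbp6 in both orders depend on how reads shared with other genes were counted, which is unknown.

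The 10 genes varied together among libraries of the same group. With each group's mean removed, Pearson's r of log2 CPM over the 11 libraries ranged from 0.18 to 0.96 among the 45 pairs, with a median of 0.69; these values describe libraries that also share depth and scaling. The highest were Tgtp1 with Tgtp2 (0.96), whose sequences are shared, Gbp2 with Gbp7 (0.93) and Igtp with Irgm2 (0.92). The lowest all involved Gbp3, with Irgm1 (0.18), Irgm2 (0.21) and Gbp8 (0.23). The medians were 0.77 within the IRG genes, 0.71 within the GBP genes and 0.66 between the families.

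Over 10254 genes with a mean of at least 5 CPM, the 5 non-members most like the mean of the 10 by the same measure were Arhgap19 (r = 0.93), Tiparp (0.93), a mono-ADP-ribosyltransferase, Ndufs6 (0.91), a complex I subunit, Nrbp1 (0.90), a pseudokinase, and Samhd1 (0.90), an interferon-inducible dNTP hydrolase that restricts retroviruses. Nlrc5, the transactivator of MHC class I genes, ranked 6 (0.89) and Iigp1, the IRG effector Irga6, ranked 7 (0.89). Genes of the interferon-gamma signalling list were spread widely: over the 20 that met the 5 CPM minimum, r ran from -0.61 (Socs3, rank 10021) to 0.89 (Nlrc5) with a median of 0.47, and 17 were above 0. Irf1 ranked 664, with an r of 0.47.

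Among the other 17 IRG and GBP genes in the table, 13 were tested, and 10 of them had a fitted level above 0 in dIEC over WT with a median log2 fold change of 0.14. None passed the adjusted threshold. Ifi47, the IRG protein Irgd, averaged 13.1 ± 5.64 CPM in dIEC and 8.07 ± 1.66 CPM in WT, a log2 fold change of 0.72 ± 0.24 (edgeR adjusted p = 0.427). Gm12250, the gene of the effector Irgb10, averaged 3.70 ± 2.37 CPM in dIEC and 1.86 ± 0.486 CPM in WT, a log2 fold change of 1.03 ± 0.39 (edgeR adjusted p = 0.427). These were the 2 of the 13 with an unadjusted p below 0.05, where 4.87% of all genes were higher in dIEC by that measure. In each, 3 dIEC libraries exceeded every WT library. Iigp1 averaged 10.9 ± 4.52 CPM in dIEC and 7.52 ± 3.27 CPM in WT (log2 fold change 0.54 ± 0.31). Of the GBP genes, Gbp10 (0.57 ± 0.31) and Gbp4 (0.50 ± 0.26) had the larger log2 fold changes, and Gbp5 (0.027 ± 0.19), Gbp9 (0.0042 ± 0.29) and Gbp2b (-0.24 ± 0.36) had values near or below 0. The remaining IRG-family genes had log2 fold changes of 0.35 (F830016B08Rik), 0.14 (Gm4951), 0.030 (9930111J21Rik2), -0.044 (9930111J21Rik1) and -0.15 (Irgq). Gm12185, Gm4841, Irgc1 and Gbp11 had too few counts to be tested, at most 13 in a library.

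Genes of interferon-gamma signalling and its targets had values on the same side. Of 26 in the list, 23 were tested, and the median log2 fold change was 0.50. All 23 were above 0, as were 48.8% of all genes. None passed the edgeR threshold, and 14 had an unadjusted p below 0.05 and were higher in dIEC, where 4.87% of all genes did. DESeq2 called 2, Socs3 and Zbp1, and 0.110% of all the genes it adjusted. Irf1, the factor that reads ISREs, averaged 59.3 ± 14.9 CPM in dIEC and 51.3 ± 9.16 CPM in WT (0.21 ± 0.16, edgeR adjusted p = 0.627). The more abundant genes of the list were Parp14 (log2 fold change 0.43 ± 0.19), Stat3 (0.36 ± 0.13), Ifngr1 (0.20 ± 0.16) and Jak1 (0.13 ± 0.08). Ifng itself, the ligand, had 5 counts in all 11 libraries together and at most 2 in one, so no difference was detectable at this depth.

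Lists of neighbouring processes had medians closer to that of all genes than the GTPase genes did. Of 22 tested genes of the type I and III interferon response 19 were above 0, with a median log2 fold change of 0.24 and 1 (Ifit1) with an unadjusted p below 0.05. Its most abundant genes were Trim25 (0.19 ± 0.14), Ifih1 (0.22 ± 0.15), Ifnar1 (0.066 ± 0.096) and Ddx58 (0.12 ± 0.12). Of 16 tested genes of the list of caspase-11 and the inflammasomes, 14 were above 0, with a median of 0.29. In this list Casp4, which encodes caspase-11, Gsdmd and Ripk3 had an unadjusted p below 0.05 and were higher in dIEC. Over all genes 4.87% were higher by that measure and 48.8% were above 0. Gsdmd, the pore-forming protein that caspase-11 cleaves, averaged 81.5 ± 21.2 CPM in dIEC and 48.5 ± 23.4 CPM in WT (0.75 ± 0.28, edgeR adjusted p = 0.427), beside Naip1 (0.38 ± 0.24), Naip5 (0.19 ± 0.16) and Nlrp6 (0.087 ± 0.13).

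The ubiquitin-like conjugation and autophagy genes, which in mouse cells bring IRG and GBP proteins to vacuoles, had 12 of 21 above 0 and a median of 0.058; Tax1bp1 (0.51 ± 0.20) and Traf6 were higher and Atg16l1 lower in dIEC with an unadjusted p below 0.05, where 4.87% of all genes were higher and 5.79% lower by that measure. Sqstm1 (0.22 ± 0.14), Gabarap (0.21 ± 0.13) and Optn (0.19 ± 0.21) were the other abundant genes of that list. The 6 genes that attach and process prenyl lipids, which some GBP proteins carry, had a median of 0.018, with Icmt at 0.045 ± 0.11, Zmpste24 at 0.096 ± 0.11, Fnta at -0.0100 ± 0.12 and Pggt1b at -0.026 ± 0.14. A list of other large GTPases and the giant ubiquitin ligase Rnf213 had 4 of 9 above 0 and a median of -0.15. In it, Gvin1, a very large interferon-inducible GTPase, averaged 67.1 ± 12.3 CPM in dIEC and 88.0 ± 13.3 CPM in WT (-0.39 ± 0.14, edgeR adjusted p = 0.427), and Gm4070 gave the same log2 fold change of -0.39 ± 0.14. Sequence shared between Gvin1 and Gm4070 was not examined, so they may not be separate measurements. Rnf213 (0.24 ± 0.17) and Dnm2 (0.20 ± 0.14) were the most abundant genes of this list. None of the genes in these 5 lists passed the adjusted threshold in edgeR's test.

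Marker levels of other cells in the tissue were compared between the groups, for some lists library by library. Of 20 T and intraepithelial lymphocyte markers 12 were tested, and all 12 had a log2 fold change above 0 (median 0.78). Of these, 8 had an unadjusted p below 0.05, where 4.87% of all genes were higher in dIEC by that measure. Their summed CPM was 88.0, 60.7, 48.9, 61.6 and 97.6 in dIEC, against 28.4 to 56.6 in WT. Replicates 1, 3 and 11 of dIEC were above the WT range both in these markers and in the summed GTPases, replicate 6 in the markers only and replicate 5 in neither. With the mean log2 level of these markers as a covariate, the median log2 fold change of the 10 genes was 0.15, 8 of 10 were above 0 and none had an unadjusted p below 0.05. That mean level itself differed between the groups, at 2.15 ± 0.39 in dIEC and 1.45 ± 0.31 in WT (SD, exact two-sided permutation p = 0.00866). Genotype and marker level therefore cannot be told apart in this fit, and its errors were wider, for Igtp 0.47 (SE) against 0.31 without the covariate. All 23 tested of the 24 absorptive enterocyte markers had a log2 fold change above 0. The 24 together summed to 13073, 10456, 8839, 5554 and 12249 CPM in dIEC. In WT the sum was 14185 CPM in replicate 8 and 3714 to 7052 CPM in the other libraries. Replicates 1, 3 and 11 were again the highest of dIEC, and with replicate 5 they exceeded every WT library but replicate 8. With these markers as a covariate, the median log2 fold change of the 10 genes was 0.40. In that fit 10 of 10 were above 0 and 1 (Tgtp1) had an unadjusted p below 0.05. Macrophage and dendritic cell markers did not lean to dIEC: 5 of 15 tested were above 0, and their sum was 110 to 176 CPM in dIEC and 73.7 to 182 CPM in WT. The 15 general epithelium markers were all above 0 with a median log2 fold change of 0.21. They summed to 3538, 3581, 3262, 2997 and 3892 CPM in dIEC, with replicates 1, 3 and 11 again the highest. In WT they summed to 4091 CPM in replicate 8 and 2442 to 3059 CPM in the other libraries.

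Markers of the muscle and stroma were on the other side: 0 of 17 for smooth muscle (median log2 fold change -0.38) and 0 of 18 for fibroblasts and matrix (-0.65) were above 0, and 1 of 17 for endothelium (-0.27). Of 9 Paneth cell markers 6 were above 0 (median 0.031), and of 5 tested B and plasma cell markers 4 were (0.058). No marker was at 0 in every library. In RNA from a piece of whole ileum, more cells of a type and more RNA per cell cannot be told apart. The part of cell composition in the GTPase levels was not tested.

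**Figure D5:**
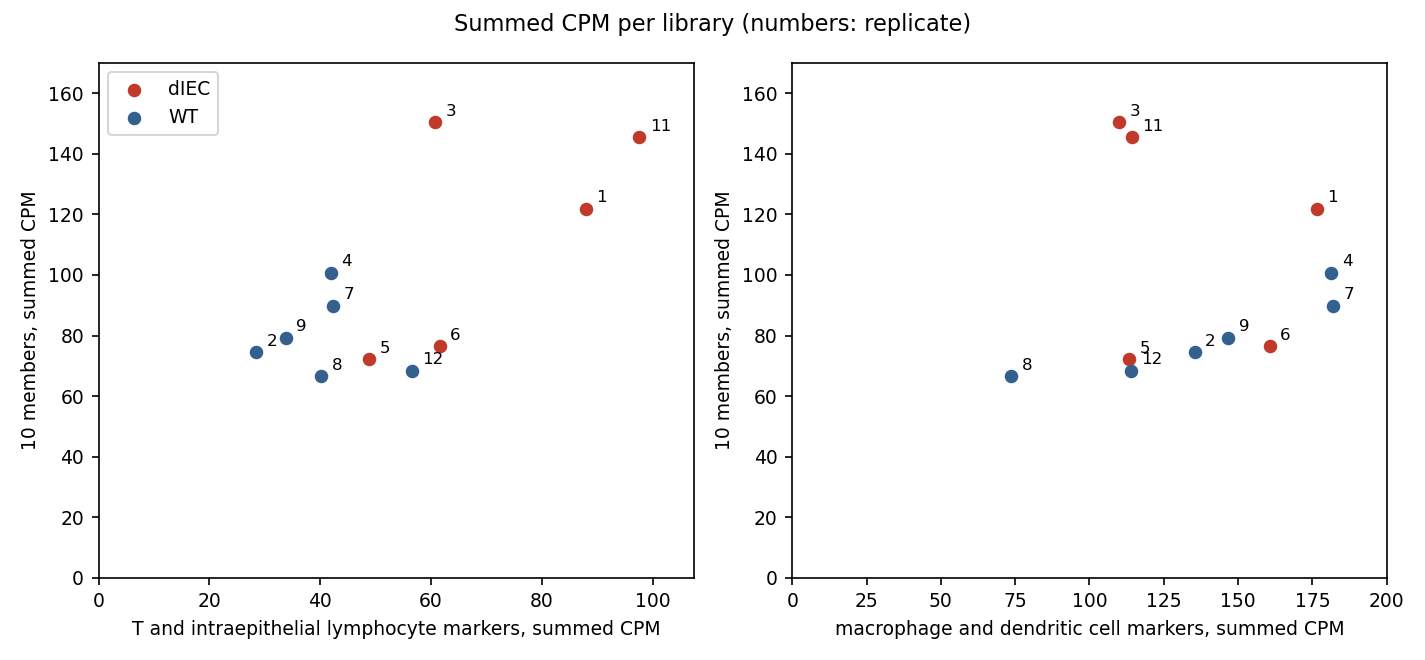
Summed CPM of the 10 members (vertical axis) against the summed CPM of T and intraepithelial lymphocyte markers (left) and of macrophage and dendritic cell markers (right), one point per library with its replicate number, dIEC in red and WT in blue. On the left dIEC replicates 1, 3 and 11 lie above WT on both axes and replicate 6 on the horizontal axis only; on the right the groups overlap along the horizontal axis.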

How the data were processed

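RNA from 2 cm of distal ileum was made into libraries with a directional kit, per the labels' protocols. Alignment with TopHat2 to mm10 is named in the submitters' processing notes. Not given in the sources used here: which tool counted the reads, its strand setting and its treatment of reads with several matches. The deposited table holds whole-number counts per gene, not normalized by the authors, for 11 libraries. Its 1 unnamed row (0.00778% to 0.0147% of counts) was left out. Replicate numbers are those of the labels.

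Genes were filtered with filterByExpr, scaled by TMM and tested with edgeR 4.0.16 (robust quasi-likelihood, dIEC against WT over all 11 libraries) with Benjamini-Hochberg adjustment over 15911 genes and a threshold of 0.05. CPM uses TMM-scaled library sizes. DESeq2 1.42.0 and limma 3.58.1 were alternatives. Exact two-sided permutation tests of single genes enumerated all 462 assignments of 5 and 6 libraries. Exon lengths, shared 50-base words and positions came from GENCODE annotation of GRCm38, promoters from RefSeq (GRCm38.p6).

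The members and gene lists were chosen with earlier results of these data known. Named genes were the 10 members, H2-Ab1, every tested gene among the other IRG and GBP genes, the 4 most abundant genes of each other list with any past the adjusted threshold, Ifng and Irf1, and the 5 genes most like the members; 1 further gene of the rule is not reported here. Other genes are named after their values were seen, for having an unadjusted p below 0.05 or for their likeness rank. The series design text writes Villin:Cre- for both groups; the sample labels were followed. A mouse gave 1 library each, so errors are between mice.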

Additional observations from a re-analysis of the deposited data

How the results depend on the processing

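None of the 10 genes passed the adjusted threshold under any of 24 other settings of the fit, among them DESeq2, limma-voom, other filters and scalings, 4 covariates and leaving out each library. The count with an unadjusted p below 0.05, 6 of 10, became 0 with the T and intraepithelial lymphocyte covariate, 1 with the absorptive enterocyte covariate and 1 when scaled by library size alone, which also moved the median log2 fold change of all genes to -0.22. With the ribosomal share as a covariate it was 9. Leaving out 1 library at a time gave 3 (without dIEC replicate 3) to 8 (without dIEC replicate 6). The share of all genes with an unadjusted p below 0.05 was taken only in the main fit (4.87% higher in dIEC). The counts under the other settings therefore have no matching share beside them. The median log2 fold change of the 10 was 0.15 with the lymphocyte covariate (8 above 0), 0.40 with the enterocyte covariate (10 above 0), 0.38 with library size alone (9 above 0) and at most 0.68 in any setting. Gbp7 changed sign to -0.022 with the lymphocyte covariate and Gbp3 to 0.065 with the enterocyte covariate; the other 8 genes kept their direction in all settings. Leaving out 1 library gave 0 to 1 genes whose groups do not overlap, namely Tgtp2 without dIEC replicate 5 and Gbp8 without dIEC replicate 6. In each case the library left out was the lowest of dIEC for that gene. The share of all genes so separated was taken only over all 11 libraries (0.233%), not with a library left out. The lymphocyte marker level differed between the groups, so genotype and cell composition cannot be told apart by the fit with that covariate. The cause was not tested. No paired analysis was possible because the groups share no replicate number. With 15 to 282 counts per gene and library, counting alone gives a coefficient of variation of up to 25.8% in a library, at the 15 counts that were the lowest of Gbp3 and of Gbp6.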
